A study of Mus musculus with 4 samples.

Results

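Arg1, Retnla, Chil3, Il4ra, Ccl17, Ccl22, Ccl24, Nos2, Acod1 and Pparg, 10 genes that mark alternative or classical activation of macrophages, were followed through single-cell RNA sequencing of the mouse ovary. They were taken by symbol from the 31053 gene rows of both count matrices, and all 10 were present, each with 1 gene ID. The cells were CD45+CD11b+ cells sorted from whole ovaries of wild-type (WT) virgin C57BL/6J mice labelled 15 months or 3 months, with no treatment in either group. Each age had 3 hashtag pools, that is, 3 cell suspensions tagged with barcoded antibodies, mixed, sorted and made into a single Chromium 3′ library for that age. A difference between the ages is thus also one between the libraries, and the pair cannot be told apart. Each p-value below rests on the spread between pools of a library. The sources disagree on the animals: the design text gives every pool 2 mice, whereas the protocol gives 5 mice aged 14 to 17 months, with 1 pool from a single animal, and 6 mice aged 2 to 3 months.

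Macrophages change their gene programme with the signals they meet. Interleukin-4 (IL-4) and IL-13, bound by receptors that contain the protein of Il4ra, act through the transcription factor STAT6 and raise Arg1, Retnla, Chil3, Ccl17, Ccl22 and Ccl24 in mouse macrophages, the alternative state, in which the nuclear receptor encoded by Pparg takes part. Bacterial products and interferon gamma raise Nos2 and Acod1, the classical state. Arginase 1 (Arg1) and inducible nitric oxide synthase (Nos2) compete for arginine, and the product of Acod1 makes itaconate. Ovarian macrophages clear dying follicle and luteal cells.

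A barcode was kept with at least 500 genes, at least 1000 gene UMIs (unique molecular identifiers, counts of single RNA molecules), at most 10% mitochondrial UMIs and a top hashtag of at least 10 counts and 3 times the second. This kept 4100 of 4939 barcodes at 15 months and 2181 of 3135 at 3 months, 6281 in all, with medians of 7692.5 and 7633 UMIs. Pools held 479 to 2437 cells. The libraries shared 3 barcodes, of which 2 were kept. Cells were clustered without the 10 genes, and clusters were named from markers ("-like"). One cluster carried macrophage and monocyte markers together with Ccr2 and H2-Aa, and is called cluster 4. Of the kept cells, 549 of 4100 (13.4%) at 15 months and 267 of 2181 (12.2%) at 3 months were NK, T or B cell-like. Another 349 (8.51%) and 196 (8.99%) were stroma, endothelial, theca or epithelial-like. Ptprc, which encodes CD45, had a UMI in 18.9% of endothelial-like and 97.7% of cluster 4 cells, and Itgam, which encodes CD11b, in 14.5% and 67.6%. Haemoglobin RNA was 0.00274% to 0.0224% of UMIs in the 15-month pools and 0.274% to 1.78% in the 3-month pools. It moved with age in every class, and its part in the differences below was not tested.

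Promoter sequence is shown for 4 genes whose levels carry the results, since 2 of them are neighbours with a shared pattern and all are IL-4 targets in mouse macrophages. Ccl22 (GRCm38 chr8:94745590-94751699, plus strand) and Ccl17 (chr8:94810453-94812036, plus strand) lie 58753 bases apart with 1 protein-coding gene, Cx3cl1, between them. The sequences are the 250 bases before RefSeq's start site (GRCm38.p6), 5′ to 3′ on the gene's strand. Capitals mark the letters TTCNNNNGAA, a spacing that STAT6 binds, and TTCNNNGAA, the spacing of other STAT proteins. Both are their own reverse complement, so both strands were searched at once, and they do not overlap here.
Ccl17 (chr8:94810203-94810452): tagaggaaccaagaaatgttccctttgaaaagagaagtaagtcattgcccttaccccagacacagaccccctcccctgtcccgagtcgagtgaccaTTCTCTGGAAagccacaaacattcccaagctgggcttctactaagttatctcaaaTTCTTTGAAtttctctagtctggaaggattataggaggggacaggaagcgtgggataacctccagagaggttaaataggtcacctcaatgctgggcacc
Ccl22 (chr8:94745434-94745683): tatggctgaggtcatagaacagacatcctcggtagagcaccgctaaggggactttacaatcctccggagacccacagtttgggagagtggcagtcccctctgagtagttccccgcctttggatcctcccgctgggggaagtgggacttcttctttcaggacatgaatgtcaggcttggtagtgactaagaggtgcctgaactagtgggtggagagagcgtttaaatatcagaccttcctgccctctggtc
Retnla (chr16:48842359-48842608): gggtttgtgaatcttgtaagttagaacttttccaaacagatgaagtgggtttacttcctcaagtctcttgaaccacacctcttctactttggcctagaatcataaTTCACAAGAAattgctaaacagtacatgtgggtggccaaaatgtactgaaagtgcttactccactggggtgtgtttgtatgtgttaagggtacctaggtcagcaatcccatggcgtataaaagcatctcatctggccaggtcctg
Chil3 (chr3:106167565-106167814, minus strand): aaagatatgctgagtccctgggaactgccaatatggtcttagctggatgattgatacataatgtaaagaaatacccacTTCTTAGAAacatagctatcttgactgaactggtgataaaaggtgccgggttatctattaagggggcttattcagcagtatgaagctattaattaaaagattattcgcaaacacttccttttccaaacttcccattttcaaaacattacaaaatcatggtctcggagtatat
The Ccl17 window held TTCTCTGGAA starting at position -154 (-1 is the base before the start site) and TTCTTTGAA at -99, the Retnla window held TTCACAAGAA at -145, and the Chil3 window held TTCTTAGAA at -172. Neither spacing occurred in the Ccl22 window. Of 32851 RefSeq windows of the same length, 5.85% held the first spacing and 7.02% the second. RefSeq windows were matched for 7 of the 10 genes, and the windows of Acod1, Il4ra and Pparg held neither spacing. A match is a run of letters only, and binding was not measured.

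The 10 genes did not share 1 cell type. Levels are given as CPM, the gene's UMIs relative to all gene UMIs of the class in a pool, with the mean and SD over pools. Most Arg1, Ccl24 and Retnla UMIs were in macrophage-like cells, a name that for Arg1 depended on the clustering. Chil3 was highest in classical monocyte-like cells, and Ccl17 and Ccl22 were highest in mature dendritic cell-like cells. Acod1 was highest in neutrophil-like cells and Pparg in non-classical monocyte-like cells. Most of the few Nos2 UMIs were in the class named endothelial-like, which also held granulosa-like and epithelial or mesothelial-like cells. Since cells were clustered on their own counts, levels between classes are described without a test.

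**Figure D1:**
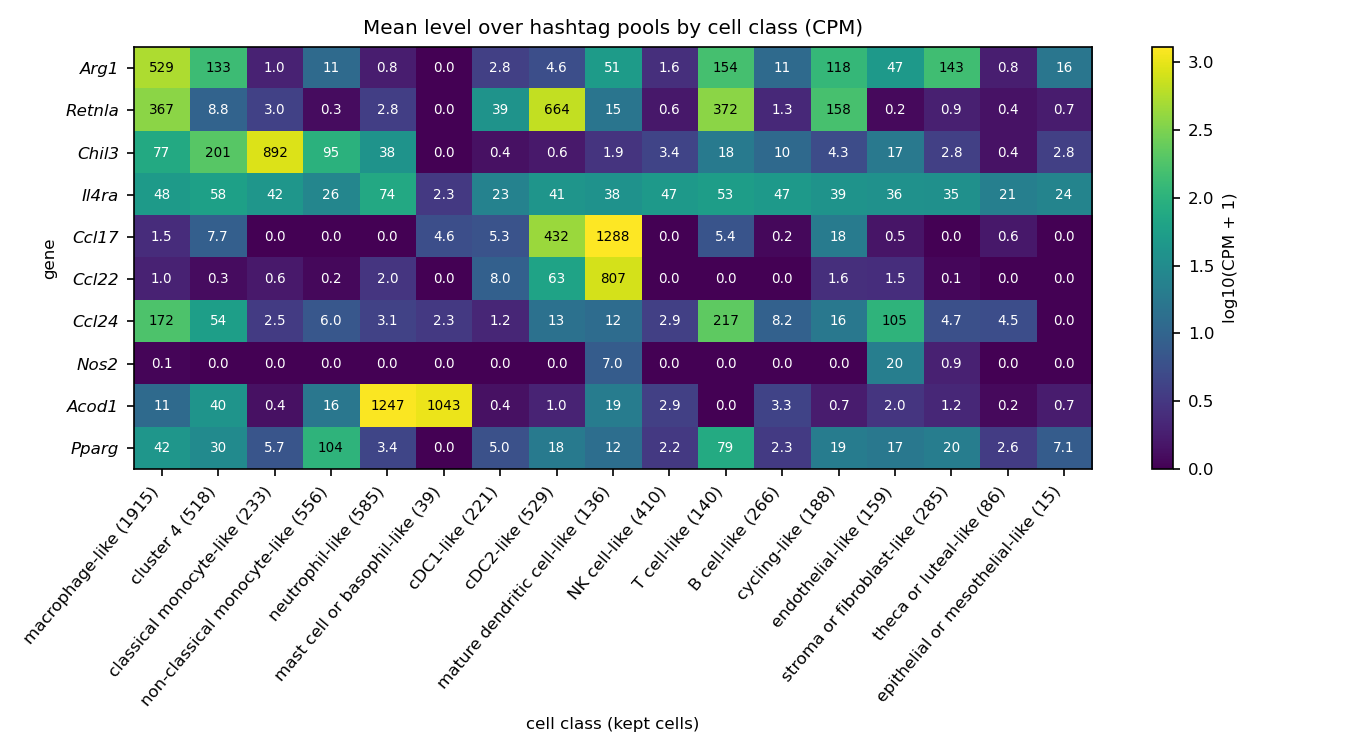
Mean level of each gene (rows) in each of 17 cell classes (columns, with kept cells of both ages in brackets), in CPM averaged over the pools that hold the class and coloured on a log10(CPM + 1) scale. Acod1 reached 1247 CPM in neutrophil-like cells and Ccl17 1288 CPM in mature dendritic cell-like cells, while Il4ra stayed between 2.3 and 74.2 CPM throughout.

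Neighbouring classes in these orders mostly overlapped. Ccl22 was the exception, with 487 to 1203 CPM over the 6 pools in mature dendritic cell-like cells and 42.7 to 83.8 CPM in cDC2-like cells, the next class. For the other 9 genes the first and second class overlapped between pools. T cell-like cells ranked second for Arg1, Retnla and Pparg and first for Ccl24 by mean level, on few cells. In the 15-month pool 2, 1 T cell-like cell held 370 and another 105 of the class's 520 Ccl24 UMIs, and in the 3-month pool 3, 1 cell held 339 of its 583 Retnla UMIs.

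The spread of UMIs between cells also set the genes apart. Retnla, a secreted resistin-like protein, had 11196 UMIs in 153 of 6281 cells, and 8 cells held at least 50% of them, with up to 1484 UMIs in 1 cell. Ccl17 had 3545 UMIs in 189 cells, with 50% in 11 cells, and Ccl24 had 6753 UMIs in 463 cells, with 50% in 15. Arg1 had 11523 UMIs in 494 cells and reached 50% with 59 cells, Chil3 6782 in 879 cells and 91, and Acod1 3157 in 594 cells and 103. Pparg (1584 UMIs in 1052 cells) and Il4ra (2821 UMIs in 1809 cells) were spread thinly, with at most 17 and 13 UMIs in a cell. Nos2 had 59 UMIs in 36 cells. For rare, intensely expressing cells such as those of Retnla, a pool's level can rest on a single cell.

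**Figure D2:**
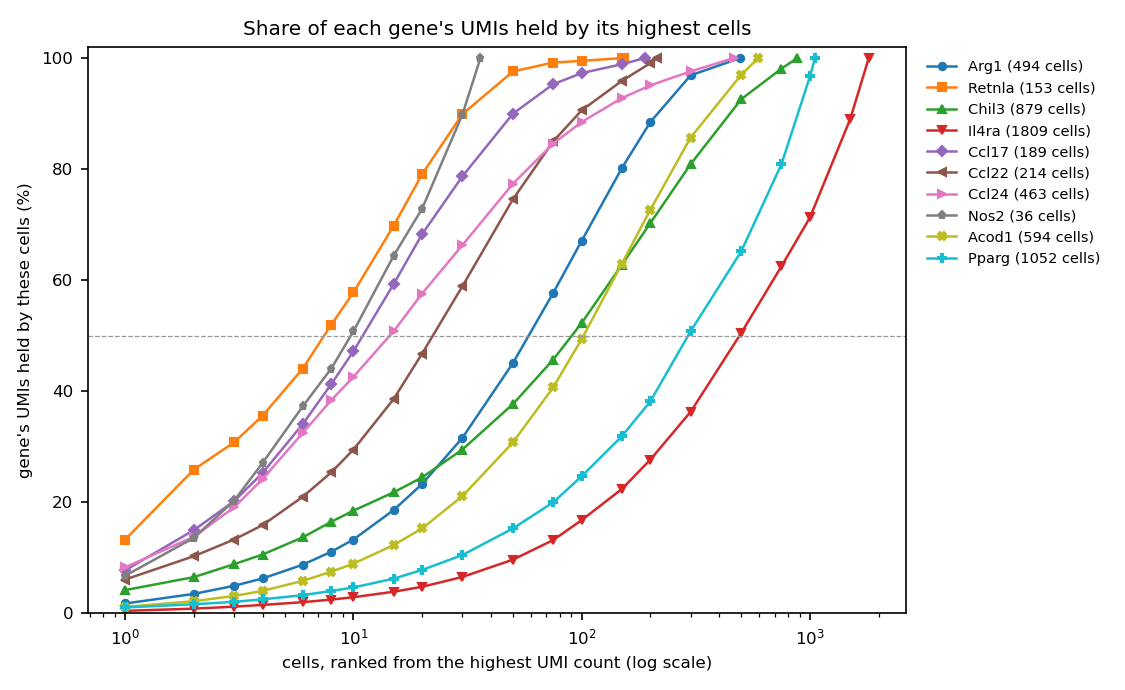
Share of each gene's UMIs (vertical axis, %) held by its highest cells (horizontal axis, number of cells ranked from the highest UMI count, log scale). The dashed line marks 50%, which Retnla passed with 8 cells and Il4ra with 493.

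Across all kept cells, no gene of the 10 passed an adjusted p of 0.05 between the ages. Counts were summed per pool and tested with edgeR's quasi-likelihood test on 12028 genes, of which 27 passed (0.224%). Nos2 did not reach the count filter. Of the other 9 genes, 5 had an unadjusted p below 0.05, as did 20.1% of all genes tested, and DESeq2 called 1 of them, Ccl22, and 3.54% of all genes. Every 15-month pool lay above every 3-month pool for Chil3, Il4ra and Acod1, which 23.2% of all genes tested did, and below for Ccl22, which 6.38% did. In all kept cells a difference can come from the level in a cell or from the number of cells of a class, which this sum does not separate. Neutrophil-like cells, which held most Acod1, numbered 465 of 4100 cells at 15 months and 120 of 2181 at 3 months. Mature dendritic cell-like cells, which held most Ccl22, numbered 68 at each age. Levels within classes are given below, and the part of class numbers was not tested.

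The values of those 5 genes follow. Il4ra had 44.4, 55.5 and 56.0 CPM at 15 months and 32.8, 32.4 and 38.0 CPM at 3 months, which is 0.48 ± 0.13 on the log2 scale (SE, edgeR adjusted p = 0.133). Acod1 had 52.5, 85.1 and 40.0 CPM at 15 months and 31.1, 10.8 and 11.3 CPM at 3 months (log2 1.63 ± 0.46, edgeR adjusted p = 0.135). Ccl22 had 10.3, 24.7 and 18.5 CPM at 15 months and 41.0, 44.3 and 32.3 CPM at 3 months (log2 -1.19 ± 0.29, edgeR adjusted p = 0.125). For Il4ra, Acod1 and Ccl22, and for Chil3 below, the pools of the ages did not overlap. Chil3 had 104, 192 and 66.5 CPM at 15 months and 62.8, 46.7 and 10.4 CPM at 3 months (log2 1.50 ± 0.62, edgeR adjusted p = 0.234). Ccl17 had 14.3, 38.1 and 28.7 CPM at 15 months and 149, 266 and 17.1 CPM at 3 months, and the low 3-month pool fell among the 15-month pools (log2 -2.47 ± 0.82, edgeR adjusted p = 0.171). Without that pool, 3 months pool 3, Ccl17 passed (edgeR adjusted p = 0.0392), as did 1.18% of all genes tested, against 0.224% with all pools.

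Within classes, tests were run where each of the 6 pools held at least 10 cells. Chil3 passed in 2 classes and Retnla in 1, and no other gene of the 10 passed in any class. The share of tested genes that passed was 0.606% in classical monocyte-like cells, 0.177% in cluster 4 and 0.0219% in cycling-like cells, where 1, 6 and 3 of the 10 genes reached the count filter. In macrophage-like cells (7 of the 10 tested), cDC2-like cells (5), non-classical monocyte-like cells (3), neutrophil-like cells (2), stroma or fibroblast-like cells (2) and endothelial-like cells (1), none of the 10 passed edgeR or DESeq2. The unadjusted edgeR p was below 0.05 for 1, 2, 1, 2, 0 and 1 of them, against 16.2%, 10.6%, 10.9%, 3.82%, 10.3% and 13.8% of all genes tested in these classes. The tested genes that passed were 0.0780%, 0.220%, 0.447%, 0.242%, 0.0163% and 0.0548% of all. In NK cell-like cells, where 0.789% of genes passed, none reached the count filter.

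**Figure D3:**
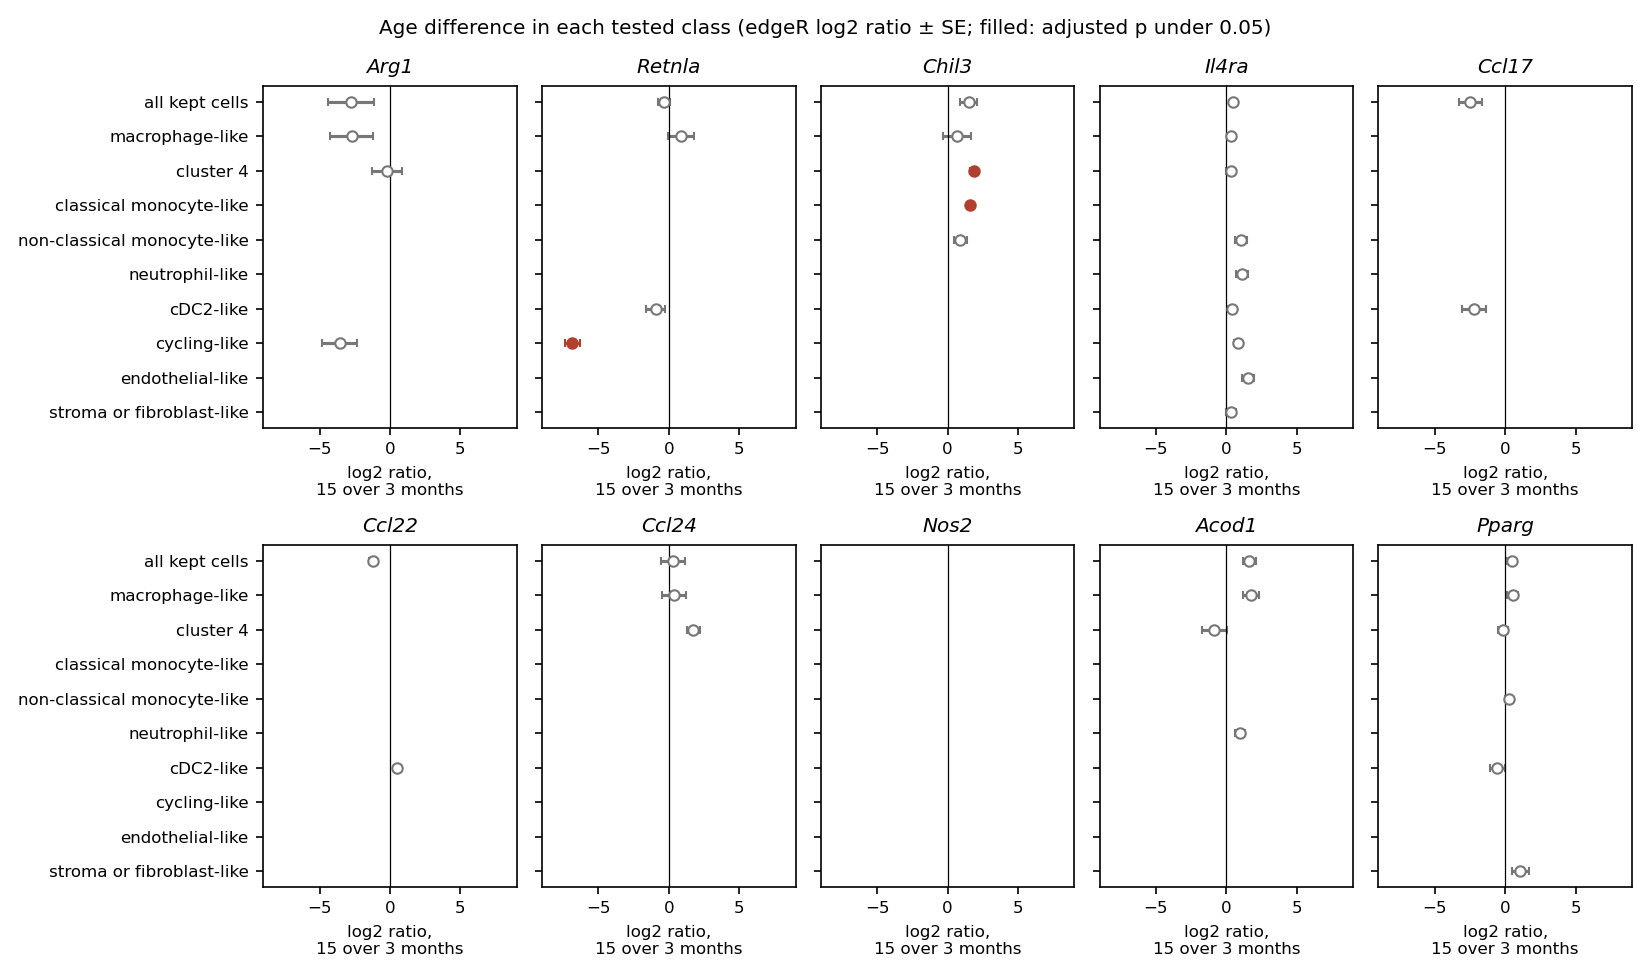
Log2 ratio of 15 months over 3 months (horizontal axis, ± SE from edgeR) for each gene in all kept cells and in each class where the gene reached the count filter. Filled points have an adjusted p under 0.05: Chil3 in cluster 4 and classical monocyte-like cells, to the right of 0, and Retnla in cycling-like cells, to the left. Nos2 reached the filter nowhere.

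Chil3 was higher at 15 months in classical monocyte-like cells and in cluster 4. It encodes a chitinase-like lectin (Ym1) secreted by mouse myeloid cells. Its gene lies at GRCm38 chr3:106147554-106167564 on the minus strand, and its promoter letters are shown above. In classical monocyte-like cells it had 1423, 1569 and 980.4 CPM at 15 months, against 429, 330 and 622 CPM at 3 months. The lowest 15-month pool lay above the highest 3-month pool, as for 7.73% of the genes tested in this class (log2 1.60 ± 0.22 SE, with an adjusted p of 0.00110 by edgeR). A Chil3 UMI was found in 147 of 187 cells at 15 months (78.6%, exact 95% interval 72.0 to 84.3%) and in 24 of 46 cells at 3 months (52.2%, 36.9 to 67.1%). These intervals treat the cells of 3 pools as 1 sample and leave out the spread between pools. They are thus not a test between the ages. In pools 1 to 3 at 15 months, 31 of 38, 90 of 118 and 26 of 31 cells had a Chil3 UMI. At 3 months 12 of 20, 7 of 16 and 5 of 10 cells did. In NK cell-like cells, which should lack Chil3, the share was 4 of 202 cells (1.98%) at 15 months and 0 of 208 at 3 months, which allows up to 1.44%. Median depth was 7613 UMIs at 15 months and 6525.5 at 3 months in classical monocyte-like cells, and 4089 and 3070 in NK cell-like cells.

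Cluster 4 showed the same direction. Chil3 had 280.2, 401 and 252 CPM there at 15 months, against 92.3, 121 and 58.0 CPM at 3 months, again without overlap, as for 9.04% of genes there (log2 1.87 ± 0.28, edgeR adjusted p = 0.00635). This call ended without 15 months pool 2 (edgeR adjusted p = 0.0546) and without 3 months pool 3 (edgeR adjusted p = 0.118), with log2 ratios of 1.61 and 1.55. Shares of cells with a UMI were 181 of 384 (47.1%) at 15 months and 33 of 134 (24.6%) at 3 months. Summed erythroid markers lay at 22.4 to 34.6 CPM at 15 months and 525 to 572 CPM at 3 months in classical monocyte-like cells, and at 21.4 to 34.5 CPM and 515 to 949 CPM in cluster 4, with 2 of 6 markers at 0 at 15 months in both classes. Their part in the Chil3 difference was not tested. Leaving out cells with over 1% haemoglobin gave the same log2 ratios and adjusted p-values in both classes, so that setting does not bear on it. In cluster 4, 1 cell held 285 of the 1154 Chil3 UMIs of 15 months pool 2.

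Other classes with Chil3 were more variable. Non-classical monocyte-like cells had 75.8, 241 and 68.2 CPM at 15 months and 132, 12.8 and 38.9 CPM at 3 months, which overlapped. The C1qa-high macrophage-like cells of cluster 0 had 8, 212 and 16 Chil3 UMIs in the 15-month pools and 0, 0 and 1 in the 3-month pools. They did not overlap, as for 12.2% of genes there, and the difference missed the threshold (log2 5.90 ± 1.11, edgeR adjusted p = 0.0602), which 0.153% of tested genes passed. It passed under 4 of 11 alternatives, among them without 15 months pool 1 (log2 6.13, edgeR adjusted p = 0.0252), where 0.530% of tested genes passed. The Lgals3- and Spp1-high macrophage-like cells of cluster 1 had 89.1, 585 and 110.1 CPM at 15 months and 155, 101 and 3.87 CPM at 3 months, which overlapped. Whether the Chil3 difference in classical monocyte-like cells or cluster 4 was larger than in other classes was tested as an interaction in 17 comparisons, and none passed edgeR (smallest adjusted p = 0.499). Single pools changed this. Without 3 months pool 3, classical monocyte-like cells had a larger difference than macrophage-like cells (by 2.31 on the log2 scale, edgeR adjusted p = 0.000524, against 1.31 with all pools). Without 15 months pool 1, the difference was smaller than in endothelial-like cells, by -5.51 for classical monocyte-like cells (edgeR adjusted p = 0.0476) and by -5.52 for cluster 4 (edgeR adjusted p = 0.0169). The endothelial-like class had 58 Chil3 UMIs, at 0 to 82.1 CPM over the pools, and Chil3 did not reach the count filter in its own test. Chil4, a near-identical relative that could share its reads, had 2 UMIs in all kept cells, and the Chil3 counts are uncertain to the extent that reads were split between them. Over the class means, Cd177 (Pearson r = 0.863), Tor1aip1 (0.856) and Tnfsf13os (0.827) followed Chil3 most closely among 10175 genes.

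Retnla (chr16:48842551-48844461, plus strand) was the other gene to pass, in cycling-like cells, and in the opposite direction. Its protein, also called RELM alpha or FIZZ1, is a secreted product of alternatively activated mouse macrophages. Cycling-like cells had 0, 3.30 and 1.55 CPM in the 15-month pools, against 472, 308 and 164 CPM in the 3-month pools. The groups did not overlap, with every 15-month pool below, as for 6.38% of genes in this class (log2 -6.86 ± 0.53, edgeR adjusted p = 0.000879). The values rest on few cells, and Retnla was the single gene of 4564 to pass in this class. At 15 months 4 of 132 cells had a UMI and the highest held 5, whereas at 3 months 2 of 15, 3 of 12 and 2 of 29 cells did, with up to 145, 35 and 63 UMIs in 1 cell of each pool. Of the 6 cycling-like cells with at least 10 Retnla UMIs, all from 3 months, 6 also had C1qa and H2-Aa UMIs, 5 had Mgl2 and 1 had Cd209a. Summed erythroid markers were 11.5 to 20.1 CPM at 15 months and 326 to 11069 CPM at 3 months in this class, and their part was not tested. Summed macrophage markers spanned 17547 to 27489 CPM at 15 months and 10946 to 24323 CPM at 3 months, with none of the 9 at 0 at either age.

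The ages overlapped in Retnla in cDC2-like and macrophage-like cells. In cDC1-like cells the Retnla pools of the ages did not overlap, with as few as 5 cells in a pool. In cDC2-like cells it had 5.42, 466 and 943 CPM at 15 months and 870.3, 771 and 926 CPM at 3 months, with 10 of 297 and 21 of 232 cells holding a UMI (log2 -0.93 ± 0.67, edgeR adjusted p = 0.637). For cDC1-like cells, too few for a test, the share of all genes without overlap was not counted. Retnla had 0 CPM there in all 15-month pools, which held 5, 70 and 8 cells. At 3 months it had 85.6, 3.89 and 143 CPM, in pools of 41, 16 and 81 cells. Of its UMIs there, 153 (75.7%) were in 2 barcodes that a finer clustering (Leiden resolution 1.0) placed in an erythroid-like cluster led by Hbb-bs, whose 32 cells from 3 months had 34.8% haemoglobin UMIs, and 49 were in 3 of the 106 other 3-month cells. The part of haemoglobin-bearing barcodes in this difference was not tested. In macrophage-like cells it had 777, 199 and 458 CPM at 15 months and 50.6, 667 and 47.9 CPM at 3 months (log2 0.84 ± 0.93, edgeR adjusted p = 0.689). Their mean of 367 CPM was 111 CPM when the 10 genes took part in clustering and 195 CPM without the 6% of barcodes with the highest doublet scores. Cluster 18 held 4942 of the 6535 macrophage-like UMIs. It was 50 macrophage-like cells led by Fn1, Saa3, Prg4 and Alox15, genes known from serous cavity macrophages. In cluster 1, where 0.149% of tested genes passed, Retnla had 0, 15.8 and 20.6 CPM at 15 months and 76.6, 539.8 and 0 CPM at 3 months. It did not pass there (log2 -4.11 ± 1.26, edgeR adjusted p = 0.311). Without 3 months pool 3 it passed (log2 -4.63, edgeR adjusted p = 0.0394), as did 0.546% of tested genes. In cluster 18, 12 of 42 cells at 15 months held 1505, 1387 and 1486 UMIs in the 3 pools, and 1 cell held 1415 of the first and another 1484 of the last. At 3 months 2 of 8 cells held 452 and 112 UMIs. The age difference of Retnla in cycling-like cells differed from that in cDC2-like cells by -6.03 ± 0.56 on the log2 scale (edgeR interaction, adjusted p = 0.000228) and from that in macrophage-like cells by -8.14 ± 1.00 (edgeR adjusted p = 0.00509). Retnlg, a resistin-like relative, had 8503 UMIs, 96.8% of them in neutrophil-like cells. The genes whose class means were most like those of Retnla were Clec4b1 (r = 0.804), Rtl5 (0.798) and Cysltr1 (0.793).

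Arg1 (chr10:24915221-24927484, minus strand) varied widely between pools of one age. In all kept cells it had 2.27, 156 and 47.0 CPM at 15 months and 761, 574 and 1.72 CPM at 3 months (log2 -2.78 ± 1.63, edgeR adjusted p = 0.375). Macrophage-like cells held 84.7% of its UMIs, and cluster 1 alone 9197 of 11523. In cluster 1 the levels were 2.97, 929 and 387 CPM at 15 months and 2389, 1558 and 17.4 CPM at 3 months (log2 -1.57 ± 1.34, edgeR adjusted p = 0.696). The share of cluster 1 cells with a UMI went with the level. It was 2 of 73 (2.74%), 65 of 201 (32.3%) and 8 of 35 (22.9%) at 15 months, against 114 of 148 (77.0%), 98 of 129 (76.0%) and 2 of 39 (5.13%) at 3 months. Pool 1 at 15 months and pool 3 at 3 months thus had almost no Arg1 in these cells, while the 2 highest pools were both from 3 months. In a finer clustering, Spp1 was among the leading genes of 2 clusters, 384 cells led by Ccl2, Spp1 and Fn1, which the naming rule left without a name, and 246 macrophage-like cells led by Fabp5, Gpnmb and Trem2. Most Arg1 was in the unnamed one. Its 365 cells from cluster 1 held 8397 of the 9197 UMIs (91.3%), with 1561 CPM over the 15-month cells and 2375 CPM over the 3-month cells, and its score was 0.31 for classical monocyte and 0.29 for macrophage markers. The macrophage-like name of the cells with most Arg1 thus depended on the clustering. In the finer one the mean Arg1 level of macrophage-like cells was 118 CPM, against 529 CPM before. Ms4a7 (r = 0.883), Vcam1 (0.851) and Lgmn (0.844) had the class means most like those of Arg1.

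**Figure D4:**
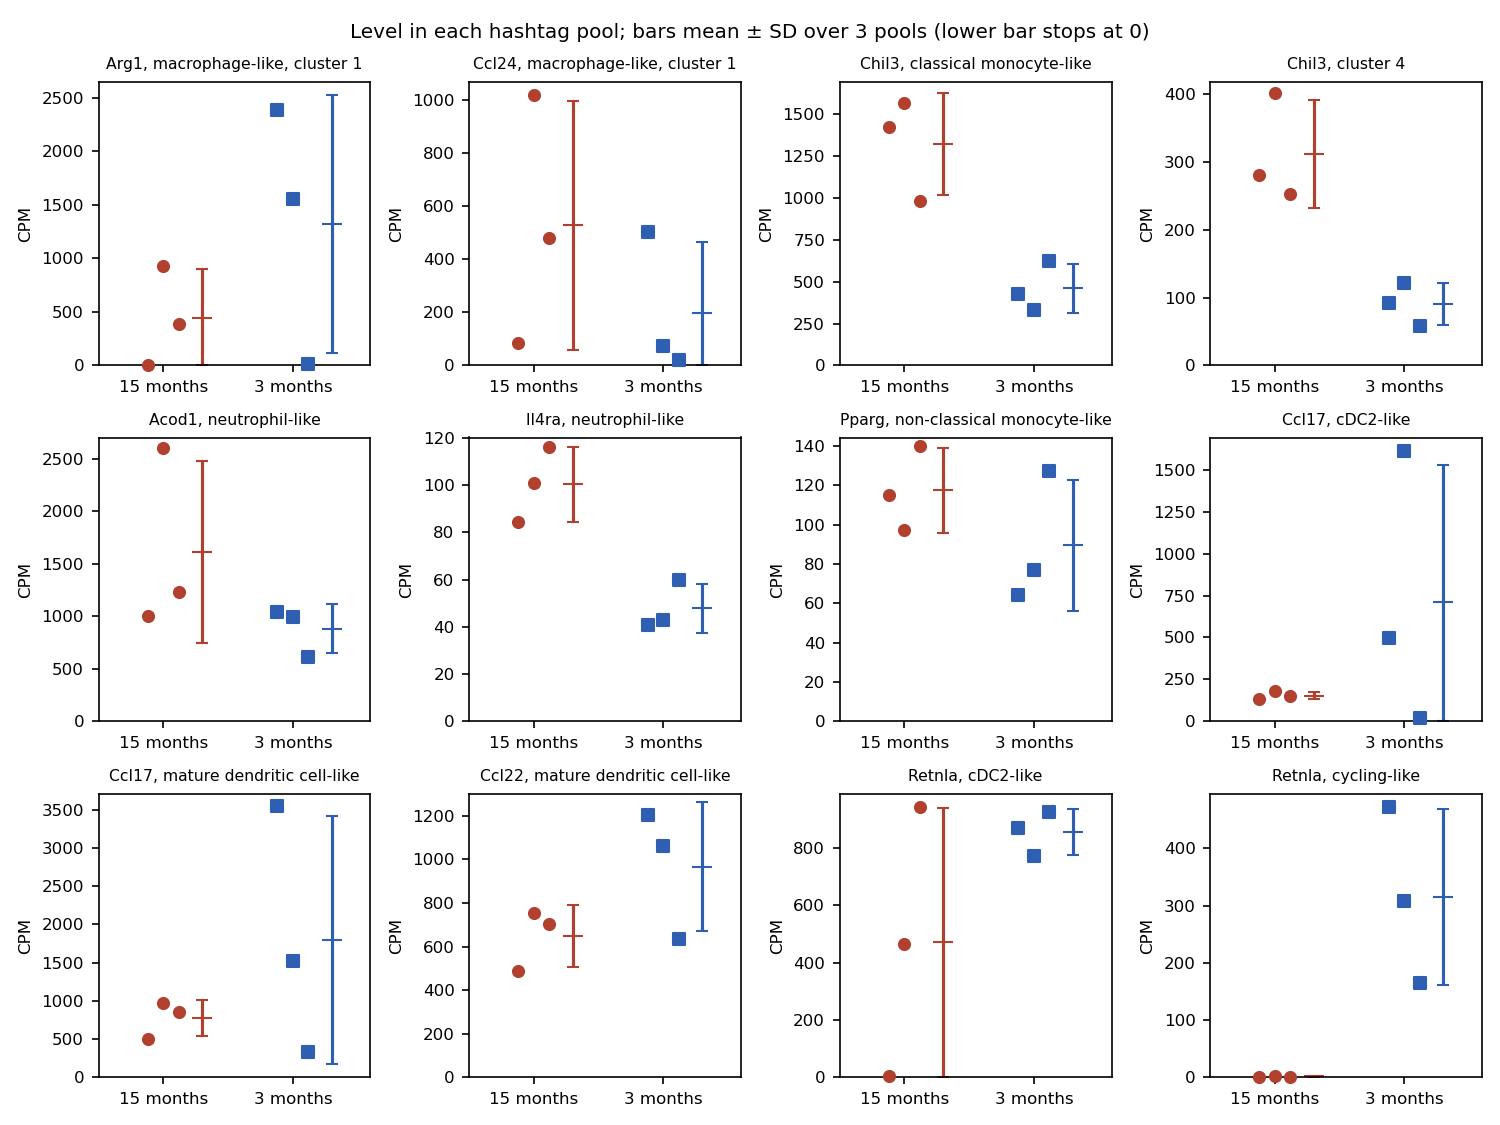
Level in CPM of 12 gene and class pairs in each hashtag pool, at 15 months (circles, left) and 3 months (squares, right), with the mean ± SD over 3 pools beside them. Both Chil3 panels and the Il4ra panel show no overlap between ages, Retnla in cycling-like cells is near 0 in all 15-month pools, and Arg1 in cluster 1 is near 0 in 1 pool of each age.

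Like Arg1, Ccl24 (chr5:135569937-135573049, minus strand), a chemokine that draws eosinophils through the receptor CCR3, had most of its UMIs in cluster 1. Cluster 1 held 4092 of its 6753 UMIs, with 84.1, 1017 and 479.8 CPM at 15 months and 502, 73.1 and 21.3 CPM at 3 months. Macrophage-like cells together had 84.3, 409.8 and 96.2 CPM at 15 months and 334, 80.2 and 27.4 CPM at 3 months (log2 0.35 ± 0.85, edgeR adjusted p = 0.873). These overlapped, and the sign of the ratio turned when 15 months pool 2 or 3 months pool 3 was left out. Cluster 4 had 112, 111 and 47.3 CPM at 15 months and 6.59, 10.5 and 37.0 CPM at 3 months. These did not overlap, as for 9.04% of genes there, and did not pass (log2 1.75 ± 0.45, edgeR adjusted p = 0.288). In cluster 18 most cells carried Ccl24, with a UMI in 31 of 42 cells at 15 months and all 8 at 3 months. In cluster 1, 106 of 149 cells with Ccl24 had Arg1 (71.1%), against 183 of 476 without it (38.4%). Chil3 was likewise found in 80 of the 149 (53.7%) and in 137 of the 476 (28.8%). Of its cluster 1 UMIs, 3740 (91.4%) were in the same unnamed finer cluster as most Arg1. Ccl24 was also found in 2 cells of the endothelial-like class in 15 months pool 2, with 344 UMIs in an endothelial-like and 34 in a granulosa-like cell of the finer clustering. Its class means were most like those of Cxcl13 (r = 0.808), Rab3il1 (0.763) and C1qb (0.754).

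Ccl17 and Ccl22, the 2 ligands of the receptor CCR4, were dendritic cell transcripts here. Mature dendritic cell-like cells, led by Ccr7, had 506, 969 and 854 CPM of Ccl17 at 15 months and 3542, 1522 and 337 CPM at 3 months. Ccl22 had 487, 752 and 705 CPM there at 15 months and 1203, 1063 and 635 CPM at 3 months. The ages overlapped for both genes, and the class was not tested, since 1 pool held 5 of its cells. In cDC2-like cells Ccl17 had 133, 179 and 149.9 CPM at 15 months and 499, 1611 and 19.1 CPM at 3 months (log2 -2.21 ± 0.83, edgeR adjusted p = 0.386). As in all kept cells, the result depended on single 3-month pools. Without pool 3 it passed (log2 -2.77, edgeR adjusted p = 0.00676), as did 0.546% of genes tested in these cells, against 0.220% with all pools. Without pool 2 the ratio was -0.67 (edgeR adjusted p = 0.873). In pool 3, 14 cells with a UMI held 21 UMIs, whereas 15 cells of pool 2 held 963. Ccl22 in cDC2-like cells had 81.3, 83.8 and 58.3 CPM at 15 months and 52.2, 60.2 and 42.7 CPM at 3 months, a sign opposite to that in all kept cells (log2 0.49 ± 0.21, edgeR adjusted p = 0.439).

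The pair was found together in single cells. In mature dendritic cell-like cells 51 of 59 cells with Ccl17 had Ccl22 (86.4%), against 36 of 77 without Ccl17 (46.8%). In cDC2-like cells it was 36 of 80 (45.0%) against 43 of 449 (9.58%). Over the 17 classes, the genes whose log2(CPM + 1) followed Ccl17 most closely among 10175 genes were Etv3 (Pearson r = 0.925), Ccl22 (0.882) and Cd70 (0.824). For Ccl22 they were Il12b (0.928), Cd70 (0.916) and Strip2 (0.884). These correlations describe class means that share cells and libraries. Ccr4 itself had 5 UMIs in all kept cells, 4 of them in T cell-like cells.

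Of the 2 classical genes, Acod1 (chr14:103046977-103056573, plus strand) was abundant and Nos2 (chr11:78920787-78960254, plus strand) almost absent. Neutrophil-like cells held 2404 of 3157 Acod1 UMIs, with 1006, 2601 and 1231 CPM at 15 months and 1039.6, 992 and 614 CPM at 3 months (log2 0.96 ± 0.37, edgeR adjusted p = 1.00). These overlapped. In neutrophil-like cluster 5 the pools did not, with 951, 1053 and 1153 CPM at 15 months and 923, 373 and 614 CPM at 3 months, as for 7.73% of genes there (log2 0.60 ± 0.28, edgeR adjusted p = 0.837). Macrophage-like cells also had more Acod1 in every 15-month pool, with 9.44 to 21.5 CPM against 0.791 to 7.78 CPM at 3 months, as for 15.2% of genes there, and did not pass (log2 1.74 ± 0.55, edgeR adjusted p = 0.238). Most of this was in cluster 1, with 37.6, 53.9 and 41.3 CPM at 15 months and 1.22, 8.12 and 32.9 CPM at 3 months, without overlap, as for 7.94% of genes (log2 2.24 ± 0.65, edgeR adjusted p = 0.279). Without 3 months pool 3 it passed there (log2 3.28, edgeR adjusted p = 0.0150), as did 0.546% of tested genes, against 0.149% with all pools. Cluster 16, neutrophil-like cells led by S100a9, Cxcl2 and Slc7a11, had a UMI in 110 of 112 cells at 15 months and 11 of 11 at 3 months, with up to 5028 CPM in a pool, against 217 of 353 and 56 of 109 in cluster 5. As 105 of the 123 cluster 16 cells came from 15 months pool 2, the high level of that pool and its cluster 16 cells go together. Mast cell or basophil-like cells had 1625 and 1590.1 CPM in the 2 pools with such cells at 15 months and 0 and 959 CPM at 3 months, where they numbered 4 in all. Grina (r = 0.882), Cxcr2 (0.877) and Il1rap (0.876) followed Acod1 most closely over the classes. Of the 594 cells with Acod1, 21 had Arg1 (3.54%), against 473 of 5687 without (8.32%). These shares pool all classes. Neutrophil-like cells, which held most Acod1, had 3 Arg1 UMIs and a median depth of 2140 UMIs, against 9691 in macrophage-like cells. The parts of class and depth in this contrast were not tested.

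Nos2 had 59 UMIs, 52 of them in the endothelial-like class and 2 in macrophage-like cells. In the finer clustering, 39 of the 52 were in a granulosa-like cluster of 48 cells led by Inha, which encodes an inhibin subunit of granulosa cells, and 13 in the 87 endothelial-like cells. The endothelial-like class had a UMI in 10 of 80 cells at 15 months and 20 of 79 at 3 months, with 8.71, 11.5 and 7.89 CPM against 54.6, 9.85 and 30.7 CPM, which overlapped. Its make-up differed between the ages. The granulosa-like cells numbered 14 at 15 months and 34 at 3 months, with a Nos2 UMI in 3 and 17 of them, against 7 of 48 and 3 of 39 endothelial-like cells. In neither age was Nos2 seen in NK cell-like cells (0 of 202, which allows up to 1.49%, and 0 of 208, up to 1.44%). Unc45b (r = 0.971), Plppr4 (0.920) and Tm4sf5 (0.905) had the class means most like those of Nos2.

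Il4ra (chr7:125552120-125579474, plus strand) was the most widely spread of the 10. It had a UMI in 28.8% of all kept cells and was found in all 17 classes. Its level was higher at 15 months in neutrophil-like cells in every pool, with 84.3, 101 and 116 CPM against 41.0, 43.1 and 59.9 CPM at 3 months, but did not pass (log2 1.12 ± 0.44, edgeR adjusted p = 1.00). Pools of the 2 ages also did not overlap in non-classical monocyte-like, cycling-like and endothelial-like cells, where 9.55%, 10.7% and 11.1% of tested genes lay wholly above, against 5.41% in neutrophil-like cells. The log2 ratio of Il4ra was above 0 in each of the 8 classes where it reached the filter, from 0.29 in cluster 4 to 1.55 in endothelial-like cells, and passed in none. The classes come from the same pools and libraries, so these signs are not independent, and how many genes share 1 sign throughout was not counted. Single pools decided some of the Il4ra results. Without 15 months pool 2 it passed in endothelial-like cells (log2 1.86, edgeR adjusted p = 0.0418). In that fit 3.38% of tested genes passed, against 0.0548% with all pools. The log2 ratio of Il4ra without that pool was -0.01 in cluster 4, and without 3 months pool 3 it was -0.10 in stroma or fibroblast-like cells. In the endothelial-like class, 57 of the 91 Il4ra UMIs (62.6%) were in 24 cells that the finer clustering named epithelial or mesothelial-like, 18 from 15 months and 6 from 3 months, with 132 and 103 CPM. The endothelial-like cells themselves had 21.2 CPM at 15 months and 15.1 CPM at 3 months. The part of this make-up in the Il4ra and Nos2 values was not tested. Il4, which encodes one of its ligands, had 228 UMIs, 206 in mast cell or basophil-like cells, and all 34 UMIs of Il13, the other, were in that class, where 22 of 39 and 8 of 39 cells had a UMI. Atp2b1 (r = 0.925), Trak1 (0.907) and Amdhd2 (0.903) had the class means most like those of Il4ra.

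Pparg (chr6:115360951-115490399, plus strand) had its highest class level in non-classical monocyte-like cells, with 115, 97.1 and 140 CPM at 15 months and 64.3, 76.8 and 127 CPM at 3 months (log2 0.27 ± 0.26, edgeR adjusted p = 0.751). Among macrophage-like clusters it was highest in cluster 12, led by Fcgr4 and Cd72, with 280.4, 119 and 213 CPM at 15 months and 297 and 174 CPM in the 2 pools at 3 months that held such cells. That cluster had 156 cells at 15 months, 131 of them from pool 3, and 5 at 3 months. In macrophage-like cells together the ages overlapped (52.9, 24.4 and 77.0 CPM at 15 months, 41.5, 35.9 and 21.7 CPM at 3 months, log2 0.53 ± 0.41, edgeR adjusted p = 0.546). Nr1h3, which encodes the oxysterol receptor LXR alpha, followed Pparg most closely over the classes (r = 0.834), with Cd300e (0.834) and Pltp (0.833).

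Genes of the same pathways were read from lists. In macrophage-like cells, none of the tested genes passed edgeR in the lists for IL-4 and IL-13 signalling (10 of 12 listed genes tested, median log2 ratio 0.09), other alternative activation genes (14 of 18, median -0.00), other classical activation genes (16 of 20, 0.04), arginine and polyamine metabolism (11 of 13, -0.56), Pparg partners and lipid targets (11 of 15, 0.22) or itaconate and Nrf2 targets (10 of 11, 0.08). The median over all genes tested was 0.01. At an unadjusted p below 0.05 the counts were 2, 4, 4, 3, 1 and 1, where 16.2% of all genes tested had such a p. No chemokine receptor or partner (9 listed) and no chitinase-like or resistin-like relative (9 listed) reached the filter there. Of the metabolism list, 10 of the 11 ratios were below 0. Within macrophage-like clusters 0 and 1, 3 genes of the lists passed. In cluster 0, Fn1, the matrix protein fibronectin, was higher at 15 months (51.4 ± 26.0 against 9.83 ± 3.21 CPM, SD, 3 pools each, log2 2.61, edgeR adjusted p = 0.0145) and Il1b, an inflammatory cytokine, was lower (1058 ± 317 against 2288 ± 470 CPM, log2 -1.20, edgeR adjusted p = 0.0367). In cluster 1, Mgl2, a lectin of alternatively activated macrophages and dendritic cells, was lower (28.6 ± 3.58 against 150 ± 58.7 CPM, log2 -2.37, edgeR adjusted p = 0.0143). Over all kept cells, Fpr2, a formyl peptide receptor, was higher at 15 months (22.7 ± 4.36 against 6.11 ± 1.59 CPM, log2 1.75, edgeR adjusted p = 0.0401). In NK cell-like cells 2 genes of the lists were lower at 15 months. They were Socs3, an inhibitor of cytokine signalling (64.4 ± 19.6 against 166 ± 22.3 CPM, log2 -1.28, edgeR adjusted p = 0.0241), and Atf3, a stress-induced transcription factor (41.7 ± 31.0 against 212 ± 172 CPM, log2 -2.58, edgeR adjusted p = 0.0386). Without the 6% of barcodes with the highest doublet scores neither passed, and Atf3 had a log2 ratio of -0.33 (edgeR adjusted p = 0.782). All 6 of these calls ended when single pools were left out. The highest adjusted p was 0.262 for Fn1, 0.193 for Il1b, 0.159 for Mgl2, 0.154 for Fpr2, 0.133 for Socs3 and 0.307 for Atf3, each from edgeR.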

How the data were processed

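Gene UMI counts and hashtag counts per barcode were used as deposited. The authors' matrices hold raw counts of barcodes called as cells, processed with Cell Ranger (7.0.0 and mm10, per the submitters' processing notes, while the file headers name another release). Depth was 45060166 gene UMIs at 15 months and 27277073 at 3 months, and kept pools held 4627201 to 25840364. Intervals and the limits given for a count of 0 (3 counts) cover counting error only.

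Clustering used scanpy 1.11.5 (2000 variable genes without the 10 members, 7 of which would have been among them, 30 principal components, 15 neighbours, Leiden resolution 0.6, no integration of the libraries). A class was named from at least 3 markers seen in 20% of its cells and a lead over other classes, with limits set after the clusters were seen. Scrublet marked 3 barcodes per library (0.0690% and 0.134% at 15 and 3 months), so the caller had not worked and doublets within a pool were kept. A fit without called doublets was therefore not run, and after the data were seen the 6% of barcodes with the highest scores were left out instead. Fits of single clusters were also added then.

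UMIs summed per pool and class were tested with edgeR 4.0.16 (R 4.3.3, filterByExpr, TMM, quasi-likelihood test, Benjamini-Hochberg over all genes of the class, threshold 0.05) where every pool had at least 10 cells, and the script was tested on simulated data. DESeq2 1.42.0 was an alternative. A log2 ratio is 15 months over 3 months, with its SE from the F statistic. Pools of 1 age differed beyond sampling noise (chi-square over degrees of freedom 8.66 to 26.8), so none was counted as a duplicate. Named were the 10 members, the 3 genes most like each over classes (both with at least 20 CPM in a class), and, of the up to 3 genes with the smallest p in a list, those past the threshold. The members and lists were chosen with earlier results of these data known. Of 31053 gene IDs, 30934 matched GENCODE M21, the source of the GRCm38 gene coordinates. Il4ra and Pparg overlap Gm44876 and Gm44079, whose reads could be assigned to either gene.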

Additional observations from a re-analysis of the deposited data

Results flagged for a closer look

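The age difference of Retnla in cycling-like cells was unlike that in 2 other classes when the difference itself was tested with an interaction of age and class in edgeR. It was -6.03 ± 0.56 on the log2 scale against cDC2-like cells (adjusted p = 0.000228) and -8.14 ± 1.00 against macrophage-like cells (adjusted p = 0.00509). Both tests kept their sign and their call when each pool was left out, with values from -7.35 to -5.49 and from -10.16 to -7.09. The other 24 of the 26 interaction tests did not pass. Interactions were run only for a gene and class that had passed, so cycling-like cells were taken for their Retnla difference. Single pools changed some calls. Against cluster 4 Retnla was -6.84 (edgeR adjusted p = 0.119) and passed, for example, without 15 months pool 2 (edgeR adjusted p = 0.0145). Against stroma or fibroblast-like cells it passed without 15 months pool 3 (edgeR adjusted p = 0.00272). In cycling-like cells Retnla was 0, 3.30 and 1.55 CPM at 15 months and 472, 308 and 164 CPM at 3 months, and 6 cells, all from 3 months, held at least 10 UMIs.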

How the results depend on the processing

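Chil3 in classical monocyte-like cells and Retnla in cycling-like cells kept their direction and call under all 15 alternatives each, with log2 ratios from 1.40 to 1.80 (highest edgeR or DESeq2 adjusted p = 0.00955) and from -7.81 to -6.47 (0.0159). For the other values the cause of a change was not tested. DESeq2 called 1 of the 10 genes in all kept cells. With no filter on low counts, 2 of the 10 passed in cDC2-like, 3 in cluster 4, 2 in cycling-like, 4 in endothelial-like, 2 in macrophage-like and 1 in stroma or fibroblast-like cells, and 3 in cluster 0, 6 in cluster 1 and 1 in neutrophil-like cluster 5. Of all genes in these classes, 0.163% (cluster 5) to 2.21% (endothelial-like) then passed. With single pools left out, the number passing ranged from 0 to 1 in all kept cells, cDC2-like cells, cluster 4, endothelial-like cells and cluster 0. It ranged from 0 to 2 in cluster 1 (Acod1 higher and Retnla lower at 15 months, without 3 months pool 3) and from 1 to 2 in cycling-like cells. Where a call was added, the share of all tested genes that passed was also higher than with all pools. It was 1.18% in all kept cells (0.224% with all pools), 0.546% in cDC2-like (0.220%) and 3.38% in endothelial-like cells (0.0548%). In cluster 0 it was 0.530% (0.153%), in cluster 1 0.546% (0.149%) and in cycling-like cells 2.13% (0.0219%). With single pools left out, the interaction tests past the threshold ranged from 2 to 5. The log2 ratio then ranged, across 0, from -0.93 to 1.53 for Ccl24 and -0.64 to 0.24 for Retnla in all kept cells, from -0.79 to 1.83 for Ccl24 and -0.84 to 1.30 for Chil3 in macrophage-like cells, from -0.03 to 0.73 for Pparg in non-classical monocyte-like cells, and for Il4ra from -0.01 to 0.68 in cluster 4 and from -0.10 to 0.57 in stroma or fibroblast-like cells.

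Over all genes the number of calls moved more. It was 27 in all kept cells and 426 with DESeq2, 7 and 88 in macrophage-like cells, 3 and 46 in endothelial-like cells, 11 and 17 in cDC2-like cells, 1 and 5 in cycling-like cells, 1 and 13 in stroma or fibroblast-like cells, 12 and 27 in cluster 0, and 11 and 34 in cluster 1. Over all alternatives the range was 0 to 426 in all kept cells and 5 to 496 in macrophage-like cells, where 496 came without 3 months pool 3.

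The hashtag numbers did not pair the pools, since pools of the same number had deviations that correlated by -0.07, 0.07 and 0.10. With the replicate block the count of the 10 genes that passed was unchanged in all kept cells (0) and in every class, and Chil3 passed in cluster 0 (log2 5.11, adjusted p = 0.000802). Calls over all genes with the block were 15 in all kept cells, 18 in macrophage-like, 85 in endothelial-like, 81 in NK cell-like (25 without it) and 76 in cluster 0.

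Thinning each cell to 2000 UMIs, over the cells that had as many, changed the share of cells with a UMI to 13.9% from 18.3% for Arg1, 2.38% from 3.66% for Retnla, 7.21% from 15.5% for Chil3, 10.0% from 35.7% for Il4ra, 8.49% from 16.0% for Ccl24 and 8.76% from 28.6% for Pparg in macrophage-like cells. It gave 9.11% from 15.1% for Ccl17 in cDC2-like cells, 44.0% from 64.0% for Ccl22 in mature dendritic cell-like cells, 1.94% from 18.9% for Nos2 in endothelial-like cells and 71.4% from 67.4% for Acod1 in neutrophil-like cells, where 353 of 585 cells were deep enough, so that the shares are over different cells. The shares depend on depth, and low shares in shallow classes do not show absence.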

Other observations

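Relatives of the 10 genes had their own cell types. Arg2, the mitochondrial arginase, had 681 of its 913 UMIs in neutrophil-like cells. Arg1 instead was mostly in macrophage-like cells of the main clustering, a name that depended on the clustering. Chil1, a chitinase-like gene, had 210 of 231 UMIs there. Slc7a11, a cystine transporter, reached 1892 CPM in the same cells. Mgl2 had its highest level in cDC2-like cells (997 CPM) and Mrc1, the mannose receptor, in macrophage-like cells (326 CPM).

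In cluster 1, 22 of 26 cells with Retnla also had Arg1 (84.6%), against 267 of 599 without Retnla (44.6%). Of cells with Acod1 there, 13 of 63 had Arg1 (20.6%), against 276 of 562 without Acod1 (49.1%). These shares pool both ages and all pools, which differ in Arg1. In macrophage-like cluster 0, all 11 tested genes of the list of Pparg partners and lipid targets had a log2 ratio above 0, with a median of 0.69 against -0.01 over all genes. None passed edgeR, while 7 had an unadjusted edgeR p below 0.05, as did 9.19% of all genes tested there. The list was chosen with earlier results known, and other classes differed. In cDC2-like cells 0 of 6 ratios were above 0 (median -0.70), and 4 had an unadjusted edgeR p below 0.05, as did 10.6% of genes there. In cluster 1 it was 6 of 11 (median 0.29), and in stroma or fibroblast-like cells 6 of 8 (median 0.87).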
